A study of Mus musculus with 24 samples.

Results

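Potassium channel genes were followed in mouse gastrocnemius, the large calf muscle, with and without a growing tumour. Members were the protein-coding genes whose symbol starts with Kcn and that reached at least 0.5 counts per mega-count of the library (CPM) in at least 6 libraries. Of 43346 genes in the count table, 94 were protein-coding Kcn genes and 45 of these were members. All 45 also passed the filter of the test, which ran on 17773 genes.

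Muscle RNA was sequenced after poly(A) selection from C57BL6 mice. Mice were 7 weeks old when they were injected under the skin, and the tumour then had 3 weeks to grow. Female LLC1 and male LLC1 mice received LLC1 cells, which come from a Lewis lung carcinoma of the mouse, while female vehicle and male vehicle mice received phosphate-buffered saline. Each of the 4 groups held 6 mice with 1 library each. Mice are named below by the number in their title (2-3, for example). The sources give no allele, transgene or other treatment for any group. LLC1 was given as a cell line grafted under the skin, so it is 1 tumour line. All libraries of a group were sequenced in the same lane and each group had its own lane, per the labels. Effects of lane and of group cannot be told apart.

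Potassium channels let potassium ions leave or enter a cell along their gradient, and so set the resting voltage of a muscle fibre and end its action potential. Voltage-gated (Kv) channels are built of pore subunits that open on depolarisation, some of which are electrically silent and work only inside channels of the Kv2 type. Inward rectifiers hold the resting potential, carry potassium back from the transverse tubules and include the ATP-sensitive (KATP) channel, which links excitability to fuel supply. Two-pore-domain channels carry a leak current, and calcium-activated channels couple calcium to repolarisation.

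Library totals ran from 26.2 to 47.4 M (mega-counts). The 10 muscle fibre markers summed to at least 133400 CPM in every library. Pvalb, a calcium buffer of fast fibres, was the 1 fibre marker that fell with LLC1 in females, and Pvalb and Myh1 were the 2 that fell in males. All 8 neutrophil markers rose with LLC1 in both sexes, and summed to 60.6 to 164 CPM in female LLC1 mice, 2.12 to 4.49 CPM in female vehicle mice, 61.2 to 169.7 CPM in male LLC1 mice and 2.00 to 5.38 CPM in male vehicle mice. All 6 erythroid markers rose in both sexes, with sums of 1233 to 19960 CPM in female LLC1 mice, 473.7 to 1029 CPM in female vehicle mice, 1210 to 4291 CPM in male LLC1 mice and 426.2 to 1083 CPM in male vehicle mice. Of the 6 markers of fibro-adipogenic progenitors, 3 fell and 1 rose in females, and 4 fell and 1 rose in males. Over all genes tested, 4.97% rose and 4.95% fell by the same test in females, and 19.5% rose and 16.8% fell in males. No marker of these lists was at 0 in every library. The part of these cell types in the results on channel genes was not tested. In bulk muscle, fewer cells of a type and less RNA per cell cannot be told apart.

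The members near the level threshold were scarce transcripts. Just inside, Kcnk13 reached 0.5 CPM in 7 libraries and Kcnmb1 in 10. Just outside, Kcnip2 did so in 4 libraries, and Kcnip3, Kcne3, Kcnt1 and Kcnv2 in 3 each. Those of Kcnv2 were all male LLC1 libraries. Of the 45 members, 28 were at 0.5 CPM or more in all 24 libraries. No member met the rule in all 6 libraries of 1 group and in 2 or fewer libraries elsewhere.

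A few genes carried most of the channel message in vehicle muscle. Levels of different genes are compared per kilobase of counted exon. Over the 12 vehicle libraries, Kcnj11, which encodes the Kir6.2 pore of the KATP channel, held 25.6% of the summed CPM per kilobase of all members, and Kcna7, a Kv1-type pore subunit found in muscle, held 21.1%. Kcnc4, a fast Kv3-type subunit, held 9.86%. The inward rectifiers Kcnj12 and Kcnj2 followed with 7.40% and 6.61%. These 5 genes made up 70.6%. The counted length of Kcnj11 in the deposited table is 1173 bases, so its value per kilobase depends on that short model. In the plot of levels, the inward rectifiers fall into 2 tiers, with Kcnj11, Kcnj2, Kcnj12 and Kcnj8 well above Kcnj13 and Kcnj15.

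**Figure D1:**
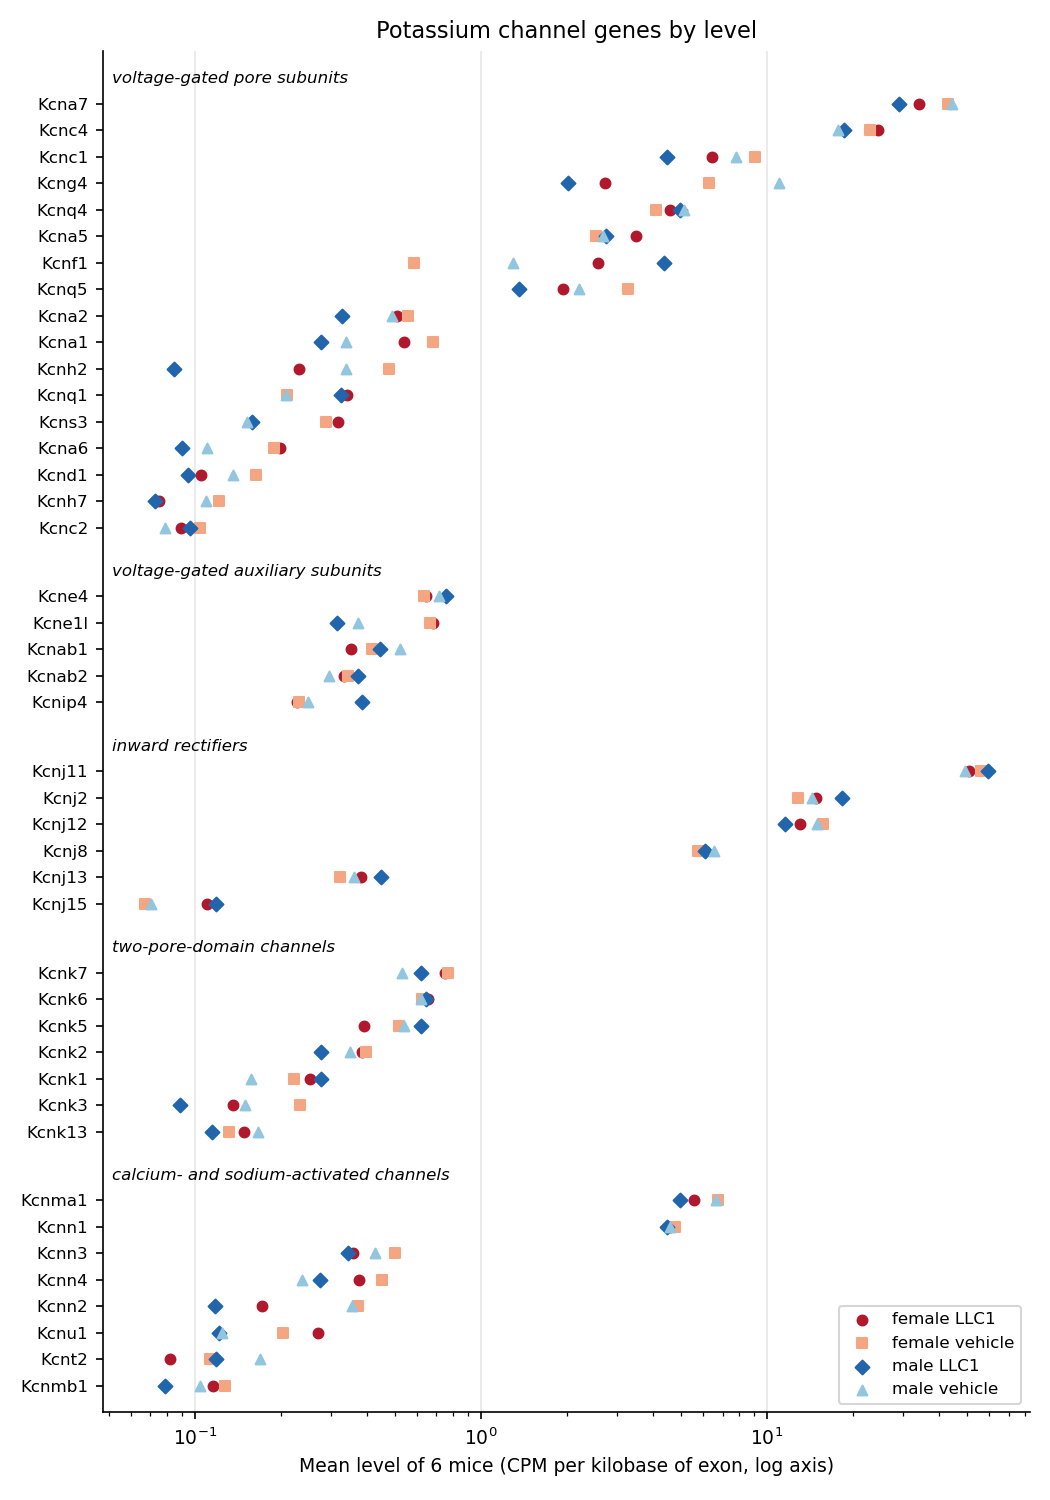
Mean level of 43 members in CPM per kilobase of counted exon (log axis), grouped by subfamily and ordered by level, with 1 marker for each group of 6 mice. Kcnj11, Kcna7 and Kcnc4 stand highest, the LLC1 markers of Kcnf1 lie right of its vehicle markers, and those of Kcng4 lie left of them.

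The first question was whether the tumour changed these genes in each sex. In females 9 of 45 members (20%) were called with LLC1, 2 higher and 7 lower, against 9.92% of all genes tested. Kcnf1 and Kcnq1 rose, and those that fell included Kcng4, Kcnn2, Kcnh2, Kcnq5, Kcnh7 and Kcnc1. In males 15 members (33.3%) were called, 4 higher and 11 lower, against 36.3% of all genes, so the male share lay near the background. All 9 female calls were among the 15 male calls with the same direction, which is 100% of the female list and 60% of the male list. The male calls outside the female list included lower Kcna7, Kcnma1 and Kcna2 and higher Kcnk1 and Kcnip4. Calls are at an adjusted p under 0.05 from the quasi-likelihood test of edgeR, with Benjamini-Hochberg adjustment over 17773 genes. The female count was 5 without mouse 2-3 of the female LLC1 group, when the count over all genes also fell to 941, against 1763 with that mouse.

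Direction leaned to lower levels among members, and this lean was not tested. Fold changes were negative for 28 of 45 members in females and for 27 in males. The median log2 fold change over the 45 members was -0.13 in females and -0.23 in males, against -0.01 and 0.01 over all genes tested. In females 7 members were called lower, against 4.95% of all genes, and 2 higher, against 4.97%. In males 11 members were called lower, against 16.8% of all genes, and 4 higher, against 19.5%. Summed over the members, channel message came to a median of 604.3 CPM (546.1 to 744.7) in female LLC1 mice and 700.3 CPM (628.5 to 775.1) in female vehicle mice. The sum in males had a median of 583.3 CPM (475.0 to 618.3) in LLC1 mice and 701.1 CPM (618.4 to 745.2) in vehicle mice. The ranges overlapped in females and only just missed each other in males. A few abundant genes weigh heavily in these sums, such as Kcna7 and Kcnc1, which fell in males. Kcnj2 and Kcnj11 averaged higher in male LLC1 than in male vehicle mice. The sums thus do not measure a lean across the family.

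Most calls were among the voltage-gated pore subunits, of which 8 of 19 were called in females (2 higher, 6 lower) and 11 of 19 in males (2 higher, 9 lower). Calcium- and sodium-activated channels had 1 of 8 called in females and 2 of 8 in males, all lower. None of the 6 inward rectifiers was called by edgeR in either sex. Among the 7 two-pore-domain channels and the 5 auxiliary subunits, none was called in females and 1 of each in males, both higher. Over all genes 9.92% were called in females (4.95% lower) and 36.3% in males (16.8% lower). The male counts of 2 of 8, 1 of 7 and 1 of 5 are below that 36.3%, which holds both directions. By direction, the 2 of 8 lower (25%) stand against 16.8%. The 1 of 7 (14.3%) and 1 of 5 (20%) higher stand against 19.5%. Subfamilies this small cannot be told from those shares. The difference between subfamilies was not tested.

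**Figure D2:**
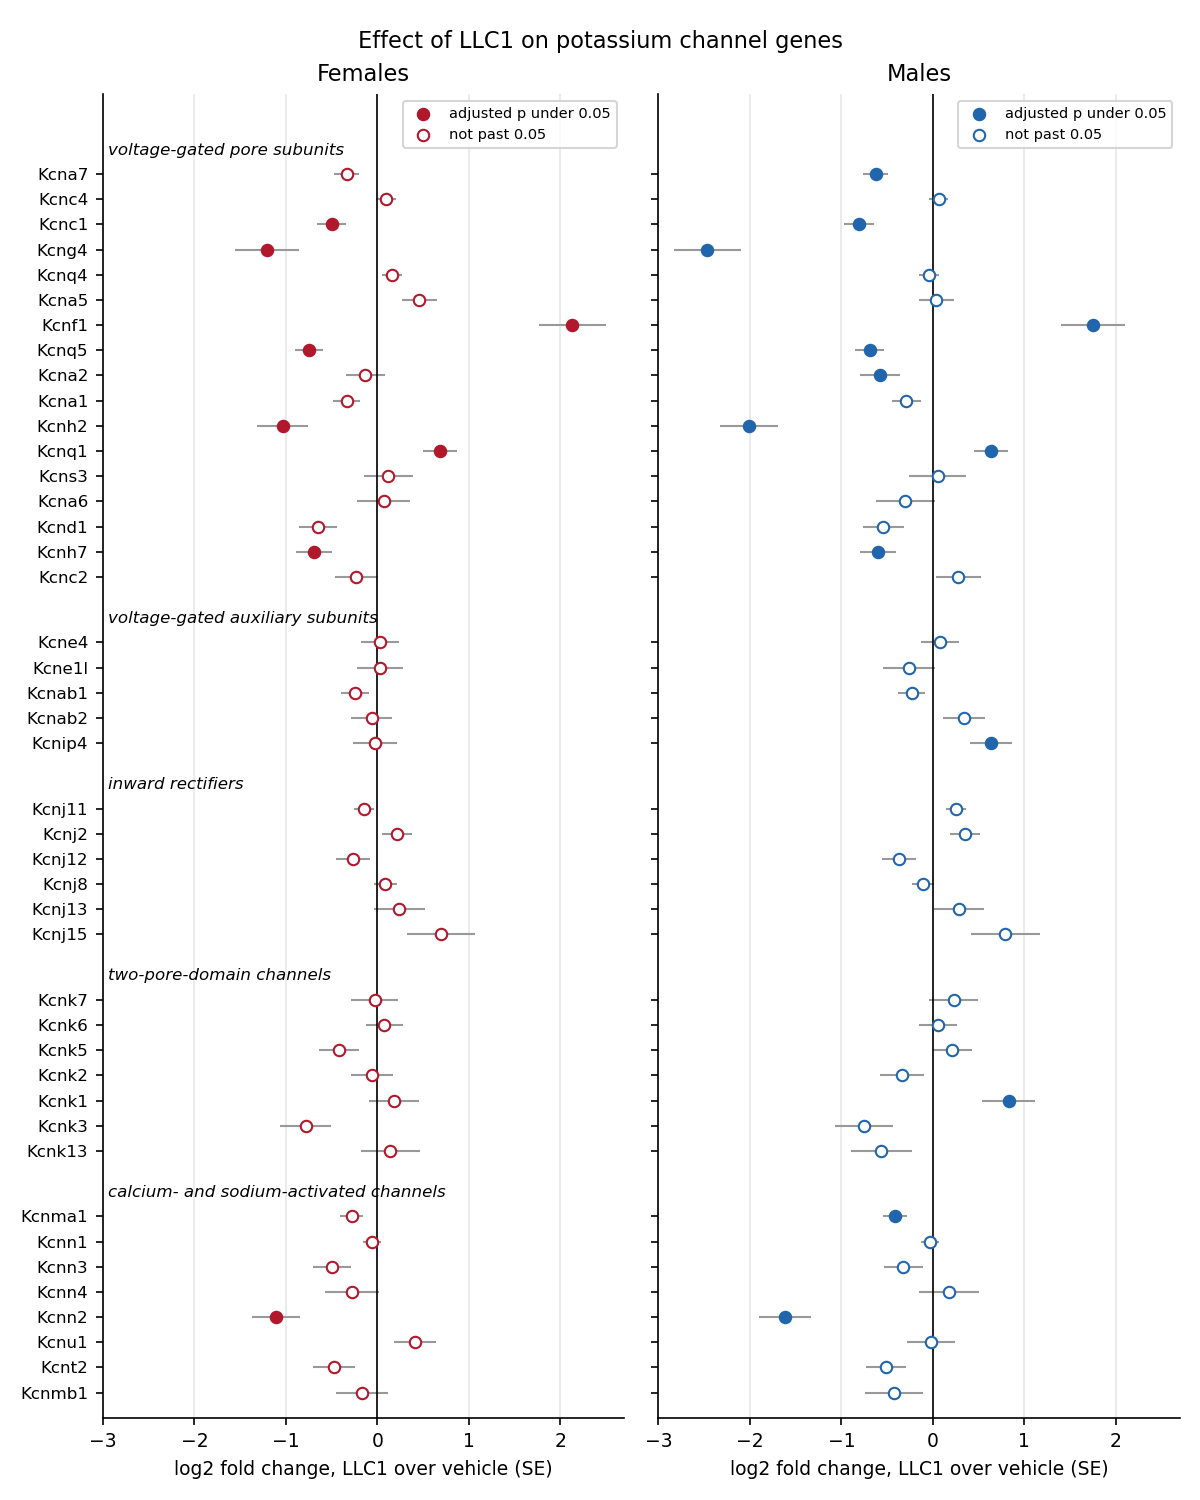
Log2 fold change of LLC1 over vehicle with its standard error (SE) for 43 members, females in the left panel and males in the right, grouped by subfamily. Filled points passed an adjusted p of 0.05. The filled points in females are filled on the same side of 0 in males, and no inward rectifier is filled.

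The silent subunits held both the largest rise and the largest fall among the members in each sex. Kcnf1 (chr12:17172100-17176888) encodes Kv5.1 and Kcng4 (chr8:119623854-119635680) encodes Kv6.4, both electrically silent subunits that form no channel alone and alter the gating of Kv2 channels when they join them. Coordinates here and below are those of the deposited table (mm10).

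Kcnf1 stood at 8.54 CPM in the lowest, 11.2 in the median and 20.4 in the highest female LLC1 library, against 1.16, 3.02 and 3.68 CPM in female vehicle libraries. Every female LLC1 library was above every female vehicle library, a separation seen in either direction for 6.55% of all genes. In males Kcnf1 was at 7.93, 21.7 and 32.9 CPM with LLC1 and at 2.84, 6.11 and 9.76 CPM with vehicle. LLC1 mouse 1-5 lay below the vehicle mice 1-1 and 1-3, and LLC1 mouse 2-2 lay just above them. Kcnf1 rose by a log2 fold change of 2.13 ± 0.37 (SE) in females (edgeR adjusted p = 7.22e-04) and of 1.75 ± 0.35 in males (adjusted p = 8.09e-04). Vehicle mice differed by the first digit of the title number. For digits 1 and 2, males had 5.18 to 9.76 and 2.84 to 3.97 CPM, and females 3.51 to 3.68 and 1.16 to 2.53 CPM. The digits overlapped in LLC1 mice. Digit 1 was more frequent in male vehicle than in male LLC1 mice, so the male means mix digit and LLC1. Both calls held with this digit as a block in the fit.

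Kcng4 moved the other way. It was at 6.23, 9.24 and 18.5 CPM (lowest, median, highest) in female LLC1 libraries and at 16.3, 24.3 and 29.0 CPM in female vehicle libraries. A single LLC1 mouse, 2-5, reached into the vehicle range. In males it was at 1.38, 5.47 and 14.8 CPM with LLC1 and at 31.0, 39.5 and 57.5 CPM with vehicle, with no overlap. Among members, 7 had all male LLC1 libraries below all male vehicle libraries, and 10.3% of all genes had separated male groups in either direction. Kcng4 fell by 2.46 ± 0.36 on the log2 scale in males (edgeR adjusted p = 6.23e-05) and by 1.21 ± 0.35 in females (adjusted p = 0.0314). The female call was lost when 1 of 8 libraries was left out, which were LLC1 mice 1-4, 1-5, 2-1, 2-3 and 2-4 and vehicle mice 1-3, 1-4 and 2-1, with adjusted p-values from 0.0557 to 0.0903. It was also lost without the filter on low counts (0.0677).

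A further silent subunit, Kcns3 (Kv9.3), averaged 0.316 ± 0.114 CPM per kilobase in female LLC1, 0.288 ± 0.0851 in female vehicle, 0.158 ± 0.0193 in male LLC1 and 0.152 ± 0.0794 in male vehicle mice (SD, n = 6 each), and was not called with LLC1 in either sex.

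Per kilobase, the order of the mean levels of the silent subunits turned over in males, and in females Kcng4 still averaged slightly above Kcnf1 with LLC1. Kcnf1 averaged 2.56 ± 0.873 CPM per kilobase in female LLC1 mice and 0.584 ± 0.204 in female vehicle mice, while Kcng4 averaged 2.72 ± 1.11 and 6.29 ± 1.20 in the same groups (SD, n = 6). In males Kcnf1 averaged 4.36 ± 2.19 CPM per kilobase with LLC1 and 1.30 ± 0.563 with vehicle, while Kcng4 averaged 2.01 ± 1.40 and 11.0 ± 2.43 in the same groups. Kcnf1 exceeded Kcng4 in 3 of 6 female LLC1 and 5 of 6 male LLC1 libraries, and in 0 of 6 vehicle libraries of each sex. Kcng4 was the higher of the pair in all vehicle muscle.

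**Figure D3:**
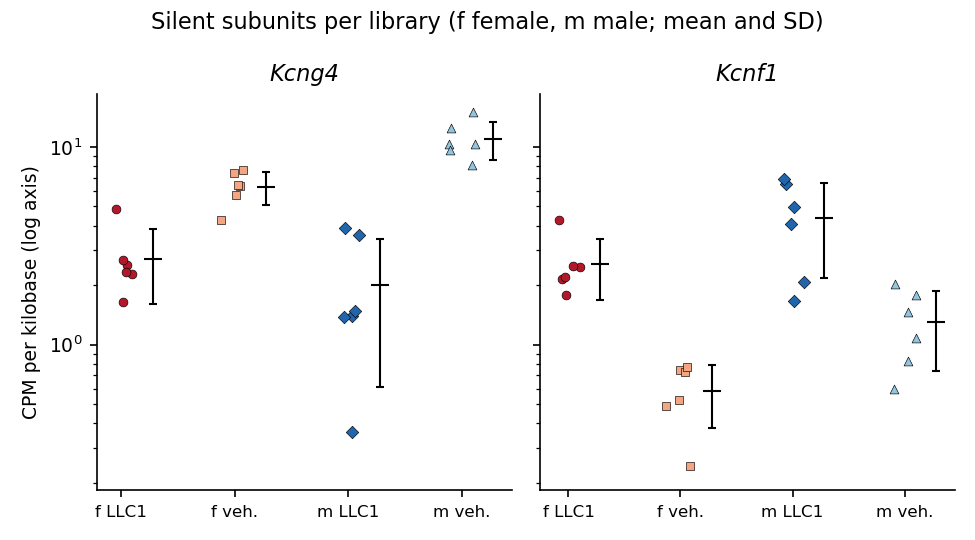
Level of Kcng4 and Kcnf1 in every library in CPM per kilobase (log axis), by group, with the mean and SD of 6 mice beside the points. Kcng4 lies above Kcnf1 in all 12 vehicle libraries, and Kcnf1 is the higher in 5 of 6 male LLC1 libraries.

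The promoters of the opposed pair are given below, since these genes share a channel partner and moved apart. They are RefSeq windows on GRCm38.p6, 250 bases before to 50 after the start, on the minus strand, at chr12:17176839-17177138 for Kcnf1 and chr8:119635631-119635930 for Kcng4. Capitals mark a match to CAGCTG, an E-box of the kind bound by myogenic factors.
Kcnf1: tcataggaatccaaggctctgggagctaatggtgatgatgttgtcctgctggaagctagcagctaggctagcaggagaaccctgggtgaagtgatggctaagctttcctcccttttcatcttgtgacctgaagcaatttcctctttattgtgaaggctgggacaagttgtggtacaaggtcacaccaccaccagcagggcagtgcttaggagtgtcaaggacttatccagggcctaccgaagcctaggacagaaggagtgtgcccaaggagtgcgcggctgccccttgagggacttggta
Kcng4: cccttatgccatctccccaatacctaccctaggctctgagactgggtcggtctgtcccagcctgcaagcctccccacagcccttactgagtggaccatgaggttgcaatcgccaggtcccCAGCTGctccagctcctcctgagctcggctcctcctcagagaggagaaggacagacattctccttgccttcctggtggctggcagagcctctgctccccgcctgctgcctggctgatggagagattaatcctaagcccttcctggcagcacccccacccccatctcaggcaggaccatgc
The Kcng4 window held 1 CAGCTG, starting 130 bases before the start, and the Kcnf1 window held none. That motif was in 16.3% of all 32851 windows. Both strands were also searched for GTAAACA (forkhead), TTCNNNGAA (STAT) and TGACGTCA (CRE), which were in 3.65%, 8.30% and 1.79% of all windows and in neither of these promoters. Of the 45 members 34 had a window, and 11 of the 15 called members did. CAGCTG was in 10 of the 34 members with a window, against 18.3% of all genes, and in 2 of the 11 called ones, Kcng4 and Kcna2. A match describes the letters and not a bound site.

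The Kv3 subunits repolarise fast-firing cells quickly. Kcnc1 (Kv3.1, chr7:46396497-46438375) was at 39.1, 62.3 and 74.8 CPM in female LLC1 libraries and 68.6, 84.7 and 97.5 CPM in female vehicle libraries. In male LLC1 libraries it was at 24.7, 42.4 and 51.4 CPM, and in male vehicle libraries at 51.7, 72.0 and 86.2 CPM. Male groups did not overlap, whereas the highest female LLC1 library lay in the vehicle range. The fall was 0.80 ± 0.16 in males (edgeR adjusted p = 6.99e-04) and 0.50 ± 0.16 in females (adjusted p = 0.0484). The female call stood at the threshold and was lost when any of 18 libraries was left out (adjusted p from 0.0503 to 0.154), without the filter on low counts (0.0982) or with RLE factors (0.0511). It was kept only without female LLC1 mouse 2-5, male LLC1 mouse 1-4, 1-5, 2-2 or 2-4, or male vehicle mouse 1-3.

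Kcnc4 (Kv3.4), a further Kv3 gene with a higher level per kilobase than Kcnc1, was not called with LLC1. It averaged 73.6 ± 11.6 CPM in female LLC1 mice and 69.0 ± 9.86 CPM in female vehicle mice, and 56.0 ± 4.87 CPM in male LLC1 mice and 53.5 ± 6.08 CPM in male vehicle mice (SD, n = 6 each).

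Kcnh2 (chr5:24319589-24351604) encodes the ERG channel that repolarises the heart. A splice form of it has been reported to rise in wasting mouse muscle, and gene-level counts do not separate its forms. Here Kcnh2 was at 0.543, 1.15 and 1.88 CPM in female LLC1 libraries and 1.80, 2.00 and 3.43 CPM in female vehicle libraries. Male LLC1 libraries had 0.165, 0.433 and 0.640 CPM and male vehicle libraries 1.12, 1.32 and 2.65 CPM. Male groups were separate and female groups met at their edges. Kcnh2 fell by 2.01 ± 0.32 in males (log2, edgeR adjusted p = 8.80e-05) and by 1.03 ± 0.28 in females (adjusted p = 0.0190). Leaving out female LLC1 mouse 2-3 or female vehicle mouse 1-3 ended the female call (adjusted p = 0.0625 and 0.0615).

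Its relative Kcnh7 (chr2:62693414-63184287), another ERG-type gene, was at 0.898, 1.03 and 1.58 CPM in female LLC1 libraries and 1.19, 1.74 and 2.64 CPM in female vehicle libraries. Male LLC1 libraries had 0.797, 1.05 and 1.62 CPM and male vehicle libraries 1.31, 1.59 and 2.24 CPM. Groups overlapped in both sexes. The fall was 0.69 ± 0.20 in females (edgeR adjusted p = 0.0268) and 0.60 ± 0.20 in males (adjusted p = 0.0225). The female call was lost without LLC1 mouse 1-4, 1-5, 2-1 or 2-3 or vehicle mouse 2-1 or 2-3 (adjusted p from 0.0577 to 0.0888). The male call was lost without LLC1 mouse 1-5 or 2-5 or vehicle mouse 1-3 (0.0524 to 0.0619). Kcnh7 shares 4.6% of its exon length with Gca on the opposite strand, and the kit kept no strand. Gca had 2.73 times its counts and was not called in either sex.

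The Kv7 genes split. Kcnq5 (chr1:21398403-21961942), whose product carries a slow current that damps excitability, was at 12.7, 14.5 and 17.9 CPM in female LLC1 libraries and 17.9, 23.9 and 37.4 CPM in female vehicle libraries. In males it was at 6.97, 10.6 and 14.0 CPM with LLC1 and 13.1, 17.5 and 18.8 CPM with vehicle. Only the edges of the groups met. Kcnq5 fell by 0.75 ± 0.15 in females (log2, edgeR adjusted p = 0.00281) and by 0.69 ± 0.16 in males (adjusted p = 0.00163).

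Kcnq1 (chr7:143106362-143427042), the pore of the slow delayed rectifier of heart, was scarce and rose. It was at 1.12, 1.42 and 1.62 CPM in female LLC1 libraries and 0.548, 0.859 and 1.19 CPM in female vehicle libraries. Male LLC1 libraries had 1.12, 1.27 and 1.69 CPM and male vehicle libraries 0.566, 0.884 and 1.21 CPM. Each vehicle group had at least 1 mouse above the lowest LLC1 mouse. The rise was 0.68 ± 0.18 in females (edgeR adjusted p = 0.0188) and 0.63 ± 0.19 in males (adjusted p = 0.0108). The antisense RNA Kcnq1ot1 covers 3.0% of its exon length and had 11.9 times its counts. Kcnq1ot1 itself was not called, at a log2 fold change of -0.02 in females and 0.26 in males.

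The Kv1 genes with a call were lower in males. Kcna7 (chr7:45405960-45411382) had 63.5, 100 and 126 CPM in male LLC1 libraries and 113, 163 and 183 CPM in male vehicle libraries, with a short overlap. Female LLC1 libraries had 104, 119 and 146 CPM and female vehicle libraries 125, 153 and 167 CPM. It fell by 0.62 ± 0.14 in males (log2, edgeR adjusted p = 0.00141), and the female difference was -0.33 (adjusted p = 0.122). In a fit of the 2 female groups alone, edgeR called the female fall as well (-0.33, adjusted p = 0.0394).

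Kcna2 (Kv1.2, chr3:107101567-107106879), a subunit also found along myelinated axons, was at 0.773, 1.17 and 1.35 CPM in male LLC1 libraries and 1.41, 1.62 and 2.06 CPM in male vehicle libraries. The male groups did not overlap. Its fall of 0.58 ± 0.22 passed narrowly in males (edgeR adjusted p = 0.0421). It was lost without the filter on low counts (adjusted p = 0.0528), and without LLC1 mouse 1-5, 2-2, 2-4 or 2-5 or vehicle mouse 1-1, 1-2, 1-3 or 2-5 (adjusted p from 0.0503 to 0.0967). In females it was at 1.14, 1.81 and 2.54 CPM with LLC1 and 1.42, 1.64 and 3.25 CPM with vehicle, a log2 fold change of -0.13 (adjusted p = 0.749). That value was 0.08 without female vehicle mouse 1-4.

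Calcium-activated channels were lower where they were called. Kcnn2, which encodes SK2, a small-conductance channel gated by calcium through calmodulin, was at 0.895, 1.12 and 1.86 CPM in female LLC1 libraries and 2.26, 2.75 and 3.09 CPM in female vehicle libraries. In males it was at 0.306, 0.678 and 1.82 CPM with LLC1 and 2.18, 2.49 and 3.18 CPM with vehicle. Kcnn2 was the 1 member whose LLC1 libraries were all below the vehicle libraries in both sexes. It fell by 1.11 ± 0.27 in females (log2, edgeR adjusted p = 0.00973) and by 1.61 ± 0.28 in males (adjusted p = 2.02e-04). An antisense gene that covers 3.8% of its exon length, A330093E20Rik, had 0.19 times its counts and also fell, by 1.46 in females and 1.90 in males.

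Kcnma1 (chr14:23289431-24004859), the pore of the large-conductance BK channel, was at 19.7, 34.1 and 44.2 CPM in male LLC1 libraries and 38.8, 43.6 and 46.0 CPM in male vehicle libraries, which overlap. It fell by 0.41 ± 0.13 in males (edgeR adjusted p = 0.0150), with an adjusted p of 0.0502 in a fit of the 2 male groups alone. Female LLC1 libraries had 30.9, 35.6 and 43.4 CPM and female vehicle libraries 39.2, 42.9 and 49.6 CPM, a difference of -0.28 (adjusted p = 0.170). In a fit of the 2 female groups alone, edgeR called this female fall (-0.27, adjusted p = 0.0499). Smooth muscle also uses BK channels. Of 7 smooth muscle and pericyte markers, 4 fell in males and 0 in females by edgeR, against 16.8% and 4.95% of all genes. Their sum was 359 to 496.7 CPM in male LLC1 mice and 468.9 to 621.4 CPM in male vehicle mice, and 395.8 to 560.1 CPM in female LLC1 mice and 457.2 to 539.4 CPM in female vehicle mice. Their part in the Kcnma1 result was not tested. The SK1 gene Kcnn1 averaged 18.6 ± 2.50 CPM in female LLC1 and 19.4 ± 2.27 CPM in female vehicle mice, and 18.2 ± 2.38 CPM in male LLC1 and 18.6 ± 1.20 CPM in male vehicle mice (SD, n = 6 each), and was not called. Kcnn3 (SK3), known to appear in denervated muscle, averaged 0.358 ± 0.0953 CPM per kilobase in female LLC1, 0.502 ± 0.150 in female vehicle, 0.344 ± 0.107 in male LLC1 and 0.428 ± 0.0525 in male vehicle mice, and was not called either.

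**Figure D4:**
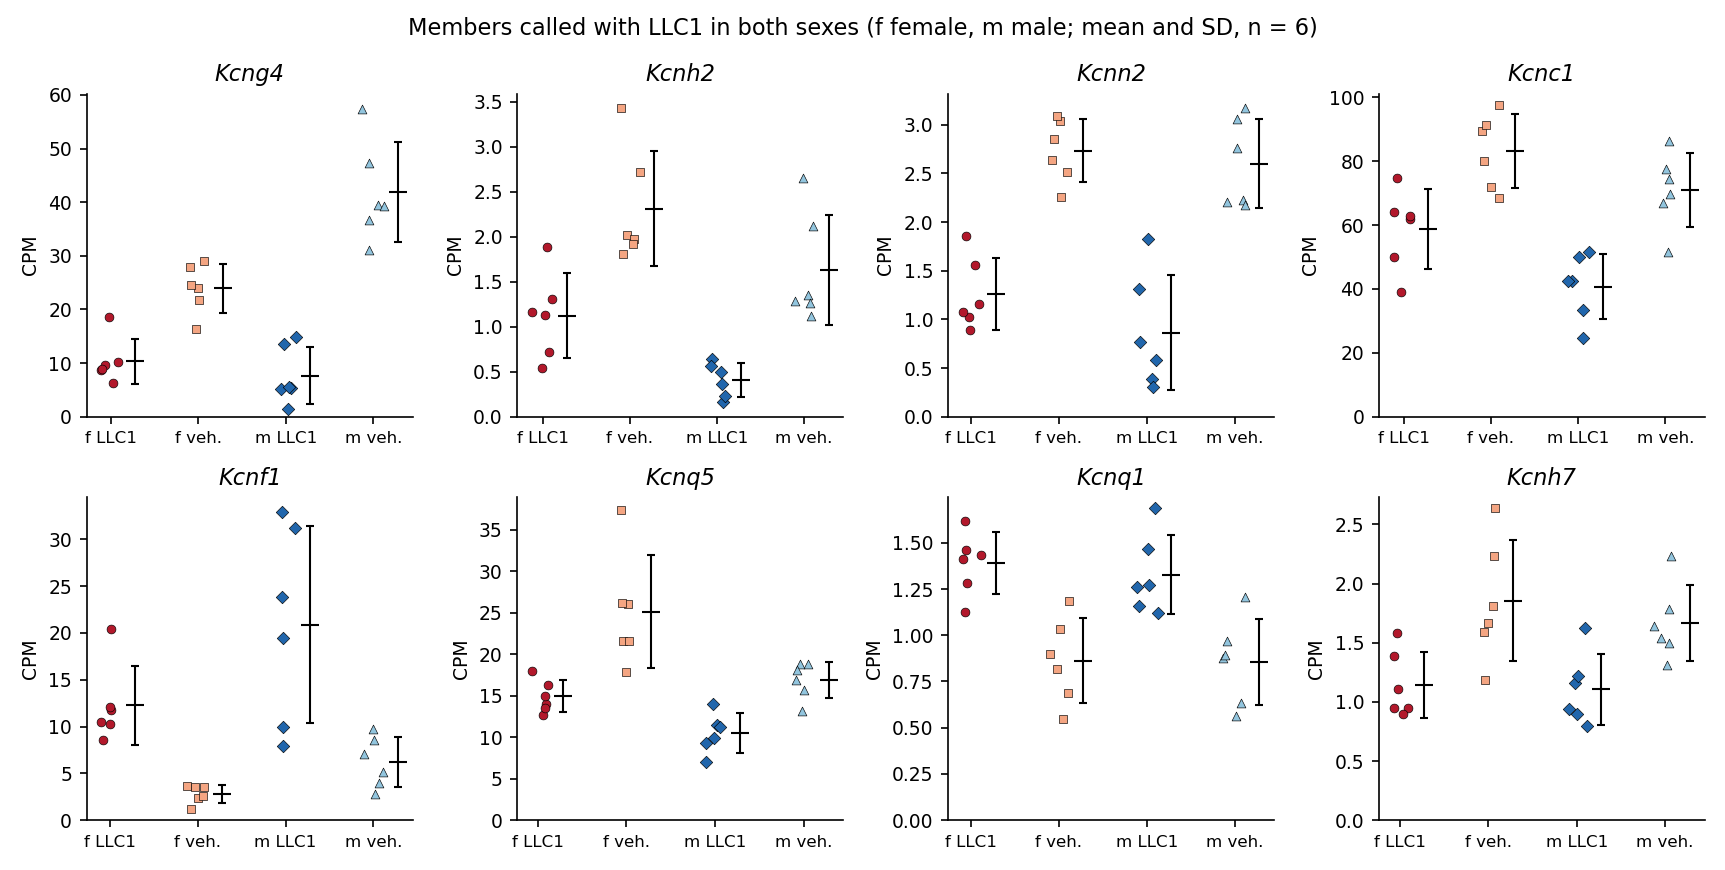
CPM in every library of 8 members called with LLC1 in both sexes, by group, each axis starting at 0, with the mean and SD of 6 mice beside the points. Kcnf1 and Kcnq1 lie higher with LLC1 and the other genes shown lie lower, and Kcnn2 has no overlap between LLC1 and vehicle in either sex.

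Outside these families, 2 scarce members rose in males. Kcnk1 (chr8:125995102-126030683), a weak leak channel, was at 0.398, 0.663 and 0.826 CPM in male LLC1 libraries and 0.0966, 0.363 and 0.677 CPM in male vehicle libraries, which overlap. Its rise was 0.83 ± 0.29 (log2, edgeR adjusted p = 0.0272). Kcnk1 was a member through its LLC1 libraries, so its membership and its rise are not independent. With a member threshold of 1 CPM it drops out, and 14 members were called in males, 3 of them higher. The call was lost in a fit of the 2 male groups alone (adjusted p = 0.0696), and without LLC1 mouse 1-5 or vehicle mouse 1-1 or 1-4 (adjusted p from 0.0614 to 0.0740). In females it was at 0.470, 0.569 and 0.760 CPM with LLC1 and 0.387, 0.444 and 0.840 CPM with vehicle, a difference of 0.19 (adjusted p = 0.718).

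Kcnip4 (chr5:48389502-49524904), which encodes a calcium-binding partner of Kv4 channels, was at 0.705, 1.44 and 2.06 CPM in male LLC1 libraries and 0.676, 0.902 and 1.22 CPM in male vehicle libraries. The groups overlap. It rose by 0.63 ± 0.23 in males (edgeR adjusted p = 0.0352). The call was lost with limma-voom (adjusted p = 0.0697), without the filter on low counts (0.0533) and in a fit of the 2 male groups alone (0.0817). It was also lost without LLC1 mouse 1-5, 2-1 or 2-4 or vehicle mouse 1-1, 1-2, 1-4 or 2-4 (adjusted p from 0.0528 to 0.119). Female LLC1 libraries had 0.570, 0.873 and 1.00 CPM and female vehicle libraries 0.666, 0.770 and 1.03 CPM, a difference of -0.03 (adjusted p = 0.961) whose sign depended on single mice. Pacrgl, on the opposite strand over 4.6% of its exon length, had 1.94 times its counts and rose by 0.67 in males (adjusted p = 0.0111).

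Inward rectifiers, which hold the resting potential, were not called with LLC1 in either sex by edgeR. In the inward rectifiers, log2 fold changes ran from -0.27 to 0.70 in females and from -0.37 to 0.79 in males. Kcnj11 was at 48.6, 59.9 and 74.9 CPM in female LLC1 libraries and 55.9, 63.4 and 79.2 CPM in female vehicle libraries, and at 53.7, 73.0 and 82.3 CPM in male LLC1 libraries and 47.8, 57.8 and 69.6 CPM in male vehicle libraries. Kcnj2 (Kir2.1), a main carrier of the resting current of muscle, averaged 81.0 ± 16.6 CPM in female LLC1, 69.7 ± 15.3 in female vehicle, 99.5 ± 12.7 in male LLC1 and 78.1 ± 21.5 in male vehicle mice (SD, n = 6 each). Groups overlapped for both genes in both sexes. Kcnj2 differed by the first digit of the title number. For digits 1 and 2, male vehicle mice had 61.5 to 69.2 and 102.7 to 108.3 CPM. Female vehicle mice had 51.7 to 63.4 and 75.7 to 86.4 CPM, and female LLC1 mice 54.3 to 71.3 and 78.3 to 97.2 CPM. Male LLC1 mice had 102.0 to 102.5 and 75.9 to 112.8 CPM. Digit 1 was more frequent in male vehicle than in male LLC1 mice, so the male means mix digit and LLC1. Kcnj12 (Kir2.2) averaged 35.9 ± 9.54 CPM in female LLC1 and 43.2 ± 10.5 CPM in female vehicle mice, and 31.8 ± 9.19 CPM in male LLC1 and 41.1 ± 4.50 CPM in male vehicle mice. Kcnj13 shares 49.1% of its exon length with Gigyf2 on the opposite strand, which had 116 times its counts, so its reads are uncertain.

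Two-pore-domain and auxiliary genes were at low levels throughout. Log2 fold changes of the two-pore-domain members ran from -0.78 to 0.19 in females and from -0.75 to 0.83 in males. Kcnk7 averaged 0.747 ± 0.275 CPM per kilobase in female LLC1 and 0.765 ± 0.109 in female vehicle mice, and 0.620 ± 0.178 in male LLC1 and 0.528 ± 0.209 in male vehicle mice (SD, n = 6 each). Kcnk6 averaged 0.655 ± 0.164 CPM per kilobase in female LLC1 and 0.621 ± 0.188 in female vehicle mice, and 0.646 ± 0.0673 in male LLC1 and 0.619 ± 0.206 in male vehicle mice. The corresponding levels of Kcnk5 were 0.390 ± 0.101 in female LLC1, 0.519 ± 0.143 in female vehicle, 0.620 ± 0.259 in male LLC1 and 0.537 ± 0.0448 in male vehicle mice. LLC1 and vehicle libraries overlapped for these 3 genes in both sexes. Among auxiliary subunits the range was -0.24 to 0.03 in females and -0.26 to 0.63 in males. Kcne4, an inhibitory partner of several Kv channels, averaged 0.646 ± 0.181 CPM per kilobase in female LLC1 and 0.634 ± 0.0524 in female vehicle mice, and 0.756 ± 0.211 in male LLC1 and 0.717 ± 0.268 in male vehicle mice. Kcne1l averaged 0.679 ± 0.172 in female LLC1, 0.667 ± 0.155 in female vehicle, 0.313 ± 0.142 in male LLC1 and 0.371 ± 0.141 in male vehicle mice. Kcnab1, a cytoplasmic Kv1 beta subunit, averaged 0.352 ± 0.0506 in female LLC1, 0.417 ± 0.0365 in female vehicle, 0.444 ± 0.113 in male LLC1 and 0.522 ± 0.106 in male vehicle mice. Over the whole family, the 36 members not called in females had log2 fold changes of -0.78 to 0.70, and the 30 not called in males of -0.75 to 0.79.

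Whether the tumour effect differed between the sexes was tested as the female minus the male log2 fold change. No member was called, against 0% of all genes (0 of 17773 by edgeR, with 2191 genes at an unadjusted p under 0.05). DESeq2 called 45 genes and limma-voom 0, with no member among them. Unadjusted p-values under 0.05 were found for 5 members, among them those named next, with a lowest adjusted p of 0.321 over the family. Kcng4 had a difference of 1.26 ± 0.49 (edgeR unadjusted p = 0.0182) and Kcnh2 of 0.97 ± 0.42 (unadjusted p = 0.0299), both with the lower estimate in males. The value was -0.40 ± 0.16 for Kcnj11 and -0.63 ± 0.30 for Kcnk5. A call in males and not in females is therefore not shown to be a difference between the sexes for any member.

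Baseline sex differences were small in number. In vehicle mice 3 of 45 members (6.67%) were called, all higher in females, against 6.23% of all genes (2.95% higher and 3.28% lower in females). DESeq2, and edgeR on the 2 vehicle groups alone, each called 8 members, 6 higher and 2 lower in females. Kcna1 (Kv1.1, chr6:126636463-126645801), which sits beside the nodes of myelinated axons, was at 4.58, 5.92 and 8.40 CPM in female vehicle libraries and 2.31, 3.02 and 3.88 CPM in male vehicle libraries, without overlap. It was higher in females by 1.01 ± 0.15 on the log2 scale (edgeR adjusted p = 1.64e-04), and the call held without any single library. Schwann cell markers moved alongside. Of 7, 6 were higher in female vehicle mice, and their sum was 132.4 to 376.8 CPM in female and 83.6 to 148.6 CPM in male vehicle mice. None was at 0 in every library, none was called with LLC1 in either sex by edgeR, and their part in the Kcna1 difference was not tested.

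Kcnq5 was higher in female than in male vehicle mice by 0.57 ± 0.15 (edgeR adjusted p = 0.0252) and Kcnc4 by 0.37 ± 0.11 (adjusted p = 0.0385), and the sexes overlapped for both genes. The Kcnq5 call was lost without female vehicle mouse 1-4, 2-1 or 2-2 or male vehicle mouse 1-2 or 1-3 (adjusted p from 0.0562 to 0.0649), and without the filter on low counts (0.0523). That of Kcnc4 was lost without female LLC1 mouse 1-5 or 2-3, male LLC1 mouse 2-1, female vehicle mouse 1-1, 1-3, 1-4, 2-1 or 2-3, or male vehicle mouse 1-2, 1-3, 2-4 or 2-5 (adjusted p from 0.0507 to 0.110), and without that filter (0.0637). The count itself was 1 without female vehicle mouse 1-4 or 2-1 or male vehicle mouse 1-2, and 5 without male LLC1 mouse 1-5. Kcng4 was lower in every female than in every male vehicle library, but did not pass (log2 difference -0.81, adjusted p = 0.175).

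**Figure D5:**
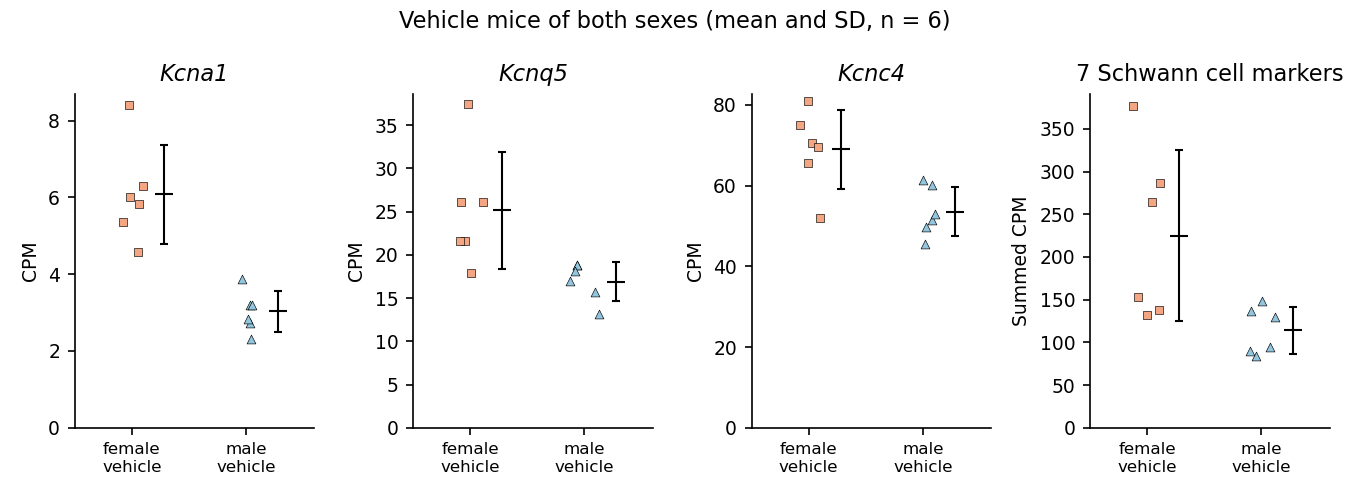
CPM of Kcna1, Kcnq5 and Kcnc4 and the summed CPM of 7 Schwann cell markers in every vehicle library, females left of males, with the mean and SD of 6 mice. Kcna1 has no overlap between the sexes, the other channel genes overlap, and the marker sum reaches 376.8 CPM in females and 148.6 CPM in males.

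Genes that work with these channels but carry other names were taken from a list of 16, of which 12 were tested. In females 2 fell and 0 rose, where 9.92% of all genes were called, and in males 5 fell and 2 rose, where 36.3% were. Lrrc55, which encodes a gamma subunit that eases the opening of BK channels, averaged 0.265 CPM in female LLC1 and 0.845 CPM in female vehicle mice, and fell by 1.67 in females (edgeR adjusted p = 0.00201) and 1.55 in males (adjusted p = 0.00131). Lrrc38, of the same gamma family, fell by 1.43 in males (adjusted p = 0.00706), and its female difference was -0.85 (adjusted p = 0.154). Dpp6, a partner of Kv4 channels, fell by 1.20 in females (adjusted p = 0.0139) and 1.37 in males (adjusted p = 9.88e-04). Abcc8, the SUR1 regulatory subunit of KATP channels, rose by 0.86 in males (adjusted p = 0.0133), while Abcc9 (SUR2), at 373 CPM in female LLC1 and 347 CPM in female vehicle mice and 381 CPM in male LLC1 and 410.3 CPM in male vehicle mice, was not called. The anchoring proteins differed in direction in males, where Ank3 rose by 0.65 and Ank2 fell by 0.61, and the pacemaker channel gene Hcn2 fell by 0.82.

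A list of 23 other excitability genes had 2 higher and 1 lower in females, against 4.97% and 4.95% of all genes, and 5 higher and 10 lower in males, against 19.5% and 16.8%. The female count and the male count of higher genes are near those shares. Its median log2 fold change was -0.05 in females and -0.24 in males, against -0.01 and 0.01 over all genes. Fxyd5, a modulator of the sodium pump, rose by 0.97 in females (edgeR adjusted p = 8.41e-05) and 1.30 in males (adjusted p = 1.30e-06). Slc12a2, the cotransporter that brings sodium, potassium and chloride into cells, rose by 0.59 in females and 0.82 in males. Cacng1, a subunit of the muscle calcium channel, rose by 0.50 in males. Clcn1, the main chloride channel of the resting fibre, fell by 0.75 in males, and Clcn2 by 0.36. Scn4b, a sodium channel beta subunit, fell by 0.67 in males and Cacna1s, the voltage sensor of muscle contraction, by 0.33.

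Markers raised in denervated muscle gave no common direction. Of 6 tested, 1 rose in females (Musk, by 0.75), and in males 2 rose (Musk by 0.98 and Runx1 by 1.26) and 1 fell (Chrnd, by 0.58). Over all genes, 4.97% were called higher in females, and 19.5% higher and 16.8% lower in males. Counts this small are not read as a result about the markers. Their sum was 52.1 to 76.0 CPM in female LLC1 and 48.3 to 57.6 CPM in female vehicle mice, and 73.1 to 141.1 CPM in male LLC1 and 57.4 to 75.6 CPM in male vehicle mice. Their part in the results on channel genes was not tested.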

How the data were processed

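The deposited table holds whole-number counts per gene, not normalized, for 24 libraries. The submitters' processing notes list CASAVA, STAR, featureCounts and mm10. The annotation and the tool versions and options were not given in the sources used here. Libraries came from a kit that does not mark strand (TruSeq RNA, version 2, per the labels' protocols), so reads of antisense pairs mix. Overlaps were read from GENCODE M21, where all 45 members were found by identifier.

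Counts were tested with the quasi-likelihood test of edgeR 4.0.16 in R 4.3.3, with filterByExpr, TMM factors (0.924 to 1.10), robust dispersion, 4 group means and 20 residual degrees of freedom. P-values were adjusted by Benjamini-Hochberg over 17773 genes and called under 0.05. SE follows from the F statistic. CPM uses the TMM-scaled library size, except in the member rule, which uses the plain total. On simulated counts for the female comparison, 172 (86%) of 200 genes changed by a log2 of 1 were recovered. The unchanged rest of the 17773 genes gave 17 false calls beside those 172. The changed genes were drawn from those above a minimum mean count, and no other group difference was simulated. Library pairs within groups differed beyond sampling noise (chi-square per degree of freedom of 10.05 to 211 over 60 pairs). Libraries were taken as separate mice from their numbers, and the p-values cover their spread only.

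Full values are given for members called with LLC1 in either sex. Members not called are given by ranges and by the 3 highest levels per kilobase of a subfamily. Called partner and excitability genes are named up to 8 a list. Members, lists and tests were chosen with earlier results of these data known. Alternatives were DESeq2 1.42.0, limma-voom (limma 3.58.1), RLE factors, no filter, the 2 compared groups alone, replicate blocks, member thresholds of 1 and 0.25 CPM, and leaving out each library. The 5 antisense Kcn rows were left out. Values of 2 members and 1 excitability gene are not reported here, although the counts include them.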

Additional observations from a re-analysis of the deposited data

Results flagged for a closer look

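In groups of 6 libraries, 16 of 172 groups of values of 43 members had 1 library far above the rest by Dixon's criterion. The criterion flags about 1 in 20 groups where values follow a normal curve. CPM was not log-transformed and can be skewed upward, so the count is not read as an excess. Each such library was the highest of its group, and no explanation was tested.

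Female LLC1 mouse 2-5 stood apart for 3 genes, at 18.5 CPM of Kcng4 (next 10.3), 20.4 CPM of Kcnf1 (next 12.0) and 55.1 CPM of Kcnj12 (next 34.6). Female LLC1 mouse 1-5 had 1.34 CPM of Kcnn4 (next 0.795), and mouse 2-3 had 1.92 CPM of Kcna6 (next 1.23). Male LLC1 mouse 1-5 had 3.83 CPM of Kcnk5 (next 1.97), and mouse 1-4 had 3.27 CPM of Kcnab2 (next 2.02).

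Female vehicle mouse 1-4 stood apart for 3 genes, at 63.5 CPM of Kcnj12 (next 41.9), 3.25 CPM of Kcna2 (next 2.05) and 0.840 CPM of Kcnk1 (next 0.525). Female vehicle mouse 1-1 had 1.89 CPM of Kcnk3 (next 0.799), and mouse 2-3 had 1.24 CPM of Kcnu1 (next 0.753). Male vehicle mouse 1-3 had 1.00 CPM of Kcnn4 (next 0.475) and 0.795 CPM of Kcnmb1 (next 0.421). Male vehicle mouse 2-5 had 1.82 CPM of Kcnt2 (next 1.21) and 3.24 CPM of Kcne4 (next 2.00).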

How the results depend on the processing

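Counts of called members stayed within 1.5 times the reported value in most settings. The female count of 9 was 5 (3 higher, 2 lower) with the full title number as a replicate block, and 5 to 11 over the 24 fits that left out 1 library. It was 7 to 11 under DESeq2, limma-voom, RLE factors, no filter, the 2 groups alone, the first digit as block and the other member thresholds. The male count of 15 ran from 11 to 18 over single libraries left out and was 11 with the full block. With members at 0.25 CPM the male count was 17 (6 higher, 11 lower), and under the remaining settings 13 to 15. The count of sex differences in effect was 0 in every setting run. The vehicle count of 3 was 8 under DESeq2 (6 higher, 2 lower in females), 5 under limma-voom, 1 without the filter, 8 with the 2 groups alone (again 6 higher, 2 lower) and 1 with the full block, and 1 to 5 over single libraries left out. The cause of these shifts was not tested. Same-numbered mice did not deviate together (correlations of -0.231 to 0.0663 over 6 pairs). With so few pairs, this cannot exclude pairing or shared handling by number. Over all genes the full block called 480 genes in females and 3607 in males, against 1763 and 6449 without it, and 269 in vehicle mice, against 1107.

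Among the genes named, calls held in all 31 settings for Kcnf1, Kcnq5 and Kcnq1 in females, for these and Kcnn2, Kcna7, Kcnc1, Kcng4 and Kcnh2 in males, and for Kcna1 between vehicle mice. Among the fold changes of named genes, direction turned for uncalled female values of Kcnip4 and Kcna2. Kcnip4 ranged from -0.082 to 0.080 over single libraries left out, and Kcna2 from -0.24 to 0.077. Without the filter, edgeR lost the calls of Kcnc1 and Kcng4 in females (adjusted p = 0.0982 and 0.0677), Kcnip4 and Kcna2 in males (0.0533 and 0.0528) and Kcnc4 and Kcnq5 between vehicle mice (0.0637 and 0.0523). With the 2 male groups alone it lost Kcnip4, Kcnk1 and Kcnma1 (0.0817, 0.0696 and 0.0502). With the 2 female groups alone edgeR gained calls of lower Kcna7 and Kcnma1 (0.0394 and 0.0499). The full replicate block ended the calls of Kcnn2, Kcnh2, Kcnh7, Kcng4 and Kcnc1 in females (0.0678 to 0.301), Kcnip4, Kcna2, Kcnk1, Kcnh7 and Kcnma1 in males (0.0853 to 0.297) and Kcnc4 and Kcnq5 between vehicle mice (0.0971 and 0.0582). The first digit as block ended Kcna2 in males (0.0750). Members under about 1 CPM rest on few counts, which limits their precision.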
